A study of Mus musculus with 24 samples.

Results

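The genes described here are 10 brakes, relays and outputs of mTORC1, the kinase complex that couples amino acids, growth factors and energy to protein synthesis: Eif4ebp1, Eif4ebp2, Rps6kb1, Ddit4, Ddit4l, Sesn1, Sesn2, Sesn3, Deptor and Rragd. They were taken by symbol from the 55487 genes listed for each library, with earlier results of these data known. All 10 passed the filter on low values that left 14690 genes for testing. RNA levels were measured by poly-A RNA sequencing of the gastrocnemius, a calf muscle, of 24 male C57BL/6J mice labelled 12 weeks old (10 weeks when obtained, per the design text), with 1 library per mouse and 8 mice per group. The casted group had casts on both hindlimbs for 8 days and intraperitoneal injections of sterilized water 2 times a day. The casted group with MOTS-c had the same casts and received 15 mg/kg/day of MOTS-c, a short peptide encoded in the mitochondrial genome, by the same route, number of daily injections and number of days. The uncasted group had no immobilization and received the water injections. Every mouse was therefore injected, and no group was left untreated. There was no group of uncasted mice given MOTS-c, so the peptide could be compared only in casted muscle. Values are TPM, the share of a library's transcripts that a gene takes after correction for transcript length. They were scaled here between libraries and are called scaled TPM, and the sequencing depth behind them is unknown.

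mTORC1 raises translation by phosphorylating the eIF4E-binding proteins, which in their unphosphorylated form hold the cap-binding protein eIF4E back, and the S6 kinases, which act on ribosomal protein S6 and on initiation and elongation factors. Several proteins restrain the complex. The REDD proteins act through the TSC complex on the GTPase Rheb, the sestrins act through GATOR2 on the Rag GTPases, and DEPTOR binds mTOR itself. The Rag GTPases bring mTORC1 to the lysosome when amino acids are present, and in skeletal muscle the pathway is known for its part in setting fibre size. The files hold RNA levels and no protein or phosphorylation, so the activity of mTORC1 was not measured.

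Markers of muscle fibres led the marker lists in every group, with a summed level of 39116 to 59543 scaled TPM in casted, 42229 to 72298 in casted with MOTS-c and 88292 to 100166 in uncasted muscle for 10 of 10 markers found. The 10 macrophage markers summed to 115 to 276 in casted, 145 to 358 in casted with MOTS-c and 92.5 to 124 in uncasted muscle. The 8 endothelial markers summed to 78.4 to 113 in casted, 96.8 to 122 in casted with MOTS-c and 105 to 151 in uncasted muscle. Of the 7 other lists, 3 separated casted from uncasted muscle without overlap. Smooth muscle and pericyte markers (5) summed to 119 to 178 in casted, 148 to 227 in casted with MOTS-c and 209 to 264 in uncasted muscle. Schwann cell markers (4) summed to 16.9 to 33.7 in casted, 23.8 to 66.4 in casted with MOTS-c and 39.6 to 65.6 in uncasted muscle. Neutrophil and lymphocyte markers (6) summed to 3.31 to 15.9 in casted, 1.40 to 20.04 in casted with MOTS-c and 0.18 to 1.22 in uncasted muscle. Only 2 of these 6 markers passed the filter on low values. The sum pools markers of both cell types, so it does not show which of them differed. Adipocyte markers (5) had medians of 67.1 in casted, 112 in casted with MOTS-c and 63.7 in uncasted muscle. No marker was listed at 0 in all libraries. The part of these sums in the results with casting or MOTS-c was not tested. In bulk muscle, fewer cells of a type and less RNA per cell cannot be told apart. On the deposited TPM, without scaling between libraries, the median gene was 0.39 higher (log2) in casted than in uncasted muscle and 0.34 higher in casted muscle with MOTS-c than in uncasted muscle, and it was -0.07 for MOTS-c against casting alone. Rises and falls are therefore given on the scaled values, in which these medians were 0.01, 0.01 and -0.00.

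Casting was accompanied by changes in both directions among these genes. Eif4ebp1, Sesn3 and Sesn2 rose, Ddit4l, Rragd and Deptor fell, and Eif4ebp2, Rps6kb1, Ddit4 and Sesn1 did not pass the test (limma's moderated linear model on log2(scaled TPM + 1), adjusted p under 0.05 over all genes tested). These 3 rises and 3 falls among 10 genes stood beside 28.7% of all tested genes higher and 27.7% lower, or 56.5% called in either direction, so the share called was close to that of all genes. On the deposited TPM the split over all genes was 9132 higher and 1091 lower, against 4223 and 4074 on the scaled values. The levels of casted and uncasted muscle did not overlap for 2 of the 10 genes, Eif4ebp1 and Rragd, beside 22.4% of all tested genes. The median log2 fold change of the 10 genes was 0.18, against 0.01 over all genes tested.

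**Figure D1:**
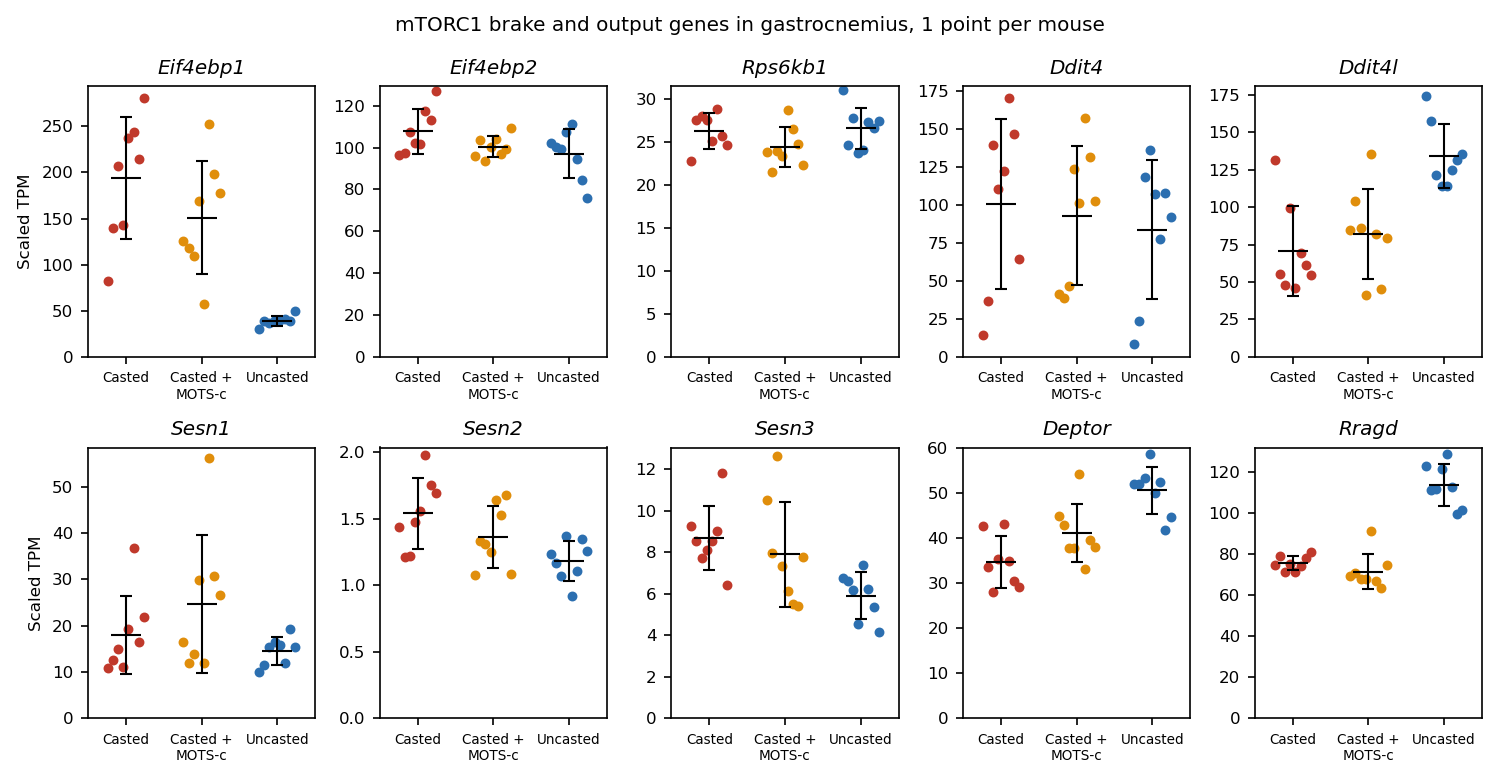
Scaled TPM (y axis, from 0) of the 10 genes in each library, 1 point per mouse, in casted, casted with MOTS-c and uncasted muscle from left to right; bars are the mean and SD of 8 mice. Eif4ebp1 was between 82.0 and 281 in casted mice and between 30.02 and 49.5 in uncasted mice, and Rragd between 71.1 and 80.9 in casted mice and between 99.7 and 129 in uncasted mice, with no overlap.

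Of the outputs of the complex, Eif4ebp1 (ENSMUSG00000031490, chr8:27260329-27276674, plus strand of GRCm38), which encodes the eIF4E-binding protein 4E-BP1, had the largest fold change of the 10 genes. Its lowest, median and highest levels were 82.0, 211 and 281 scaled TPM in the 8 casted mice, 56.9, 147 and 252 in the 8 casted mice with MOTS-c, and 30.02, 39.5 and 49.5 in the 8 uncasted mice. Every casted mouse, with or without MOTS-c, was above the highest uncasted mouse. The log2 fold change was 2.19 ± 0.24 (SE) with casting (limma adjusted p = 4.46e-08), which was place 55 from the top of 14690 genes, and 1.81 ± 0.24 with casting and MOTS-c against uncasted muscle (limma adjusted p = 1.23e-06). The spread was also wider after casting, with an SD of 34.2% of the mean in casted mice and 40.4% in casted mice with MOTS-c, against 13.7% in uncasted mice. A stretch of 357 bases, 17.9% of the annotated transcript, matched the predicted gene Gm14143 at 93.3% identity, and how such reads were divided by the authors' counting was not stated in those sources that were used.

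Eif4ebp2 (ENSMUSG00000020091, chr10:61428491-61452661, minus strand) encodes the second binding protein, 4E-BP2. It averaged 108 ± 10.6 scaled TPM in casted mice, 100.4 ± 5.07 in casted mice with MOTS-c and 97.0 ± 11.7 in uncasted mice (SD, n = 8 each), and the 3 ranges overlapped. Its log2 fold change was 0.15 with casting (limma adjusted p = 0.0631) and 0.06 with casting and MOTS-c (limma adjusted p = 0.520). On the deposited TPM these values were 0.67 (limma adjusted p = 5.12e-07) and 0.49 (limma adjusted p = 4.79e-05), so the call for Eif4ebp2 rested on the scaling. It also passed with casting, at 0.17 to 0.18 (limma adjusted p of 0.0348 to 0.0476), when uncasted replicate 4 or 5 or casted replicate 1 or 2 was left out. It passed as well at 0.24 with casted replicates 5 to 8 alone (limma adjusted p = 0.0216). An earlier reading of these data had found that set to differ from replicates 1 to 4, so the choice was not independent of the values. With replicates 3 to 8 of every group alone, a choice made after the data were seen, Eif4ebp2 passed at 0.23 (limma adjusted p = 0.0312).

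The 2 binding proteins share the short motif by which they dock on eIF4E and, at their end, the TOR signalling motif by which mTORC1 recognises its substrates. S6 kinase 1, the product of Rps6kb1, carries a TOR signalling motif near its start. The coding stretches are shown because a ratio of Eif4ebp1 to Eif4ebp2 is meaningful only where reads can tell the transcripts apart. They were read 5′ to 3′ from the GENCODE transcripts of the same build, and capitals mark the bases that code for the motif.
eIF4E-binding motif, Eif4ebp1, coding bases 145 to 189: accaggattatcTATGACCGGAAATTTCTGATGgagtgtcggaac
eIF4E-binding motif, Eif4ebp2, coding bases 148 to 192: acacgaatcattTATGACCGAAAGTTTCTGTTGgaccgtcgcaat
TOR signalling motif, Eif4ebp1, coding bases 325 to 351: gaagagtcacaaTTTGAGATGGACATT
TOR signalling motif, Eif4ebp2, coding bases 334 to 360: gatgaggctcagTTTGAGATGGACATC
TOR signalling motif, Rps6kb1, coding bases 70 to 108: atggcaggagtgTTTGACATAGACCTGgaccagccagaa
Within the eIF4E-binding motif 18 of 21 bases were identical between Eif4ebp1 and Eif4ebp2, and 33 of the 45 bases shown. Over the whole aligned coding sequence 69.1% of bases were identical and the longest identical run was 14 bases, which is shorter than a sequencing read.

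The transcripts of these 2 binding proteins changed places in level with casting. Eif4ebp1 made up 62.6% ± 7.97 of the summed 4E-BP transcripts in casted mice and 57.8% ± 11.2 in casted mice with MOTS-c, against 29.0% ± 4.97 in uncasted mice (SD, n = 8 each). The ratio of Eif4ebp1 to Eif4ebp2 within a library, which does not depend on the scaling between libraries, was 1.77 ± 0.50 in casted mice, 1.51 ± 0.62 in casted mice with MOTS-c and 0.416 ± 0.107 in uncasted mice. The difference in log2 ratio was 2.06 with casting (exact permutation test, two-sided, p = 0.0001554, the smallest that 8 against 8 can give; adjusted over 15 ratio tests, 0.000466) and 1.77 with casting and MOTS-c (exact permutation adjusted p = 0.000777). Eif4e, which encodes the cap-binding protein that the 4E-BPs hold, was at 114 ± 21.9 scaled TPM in casted mice, 117 ± 19.2 in casted mice with MOTS-c and 165 ± 11.9 in uncasted mice. Eif4ebp1 thus stood at 1.79 ± 0.76 times the level of Eif4e in casted mice and 1.36 ± 0.62 times in casted mice with MOTS-c, against 0.239 ± 0.031 times in uncasted mice. The log2 ratio to Eif4e was 2.76 higher in casted and 2.34 higher in casted MOTS-c mice than in uncasted mice, with no overlap in either comparison (exact permutation adjusted p = 0.000466 for each).

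**Figure D2:**
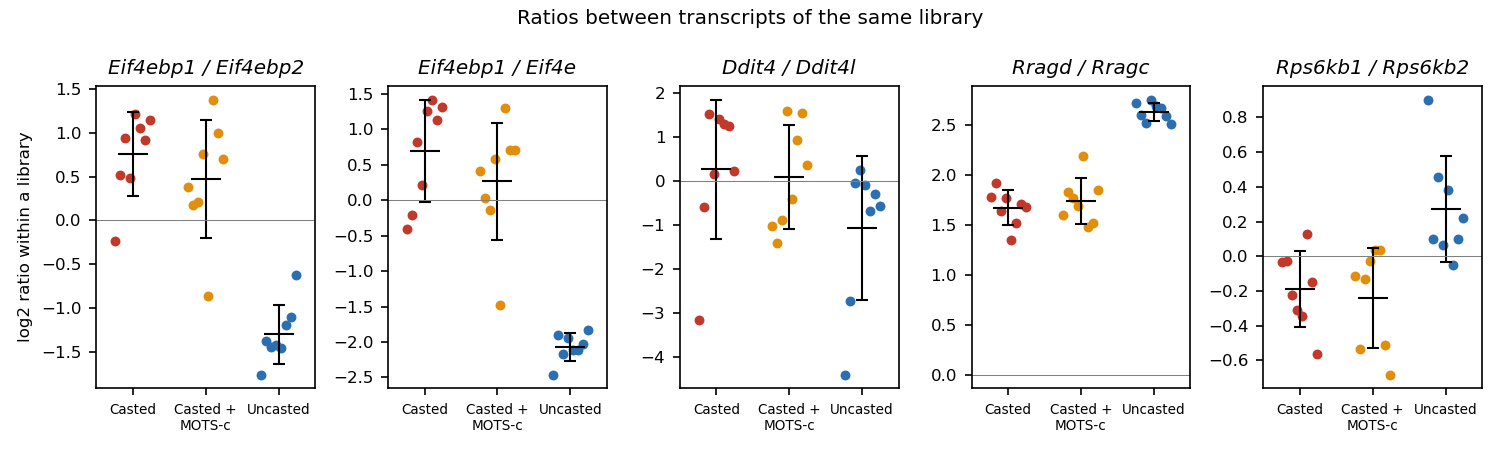
Log2 ratio of deposited TPM (with 0.1 added to each value) of 2 transcripts of the same library (y axes, not starting at the same value), 1 point per mouse, in casted, casted with MOTS-c and uncasted muscle from left to right; bars are the mean and SD of 8 mice and the grey line marks equal levels. The points of casted and uncasted mice do not overlap for Eif4ebp1 to Eif4ebp2, Eif4ebp1 to Eif4e and Rragd to Rragc, and they do for Ddit4 to Ddit4l and Rps6kb1 to Rps6kb2.

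Rps6kb1 (ENSMUSG00000020516, chr11:86498871-86544805, minus strand) encodes S6 kinase 1. It averaged 26.3 ± 2.07 scaled TPM in casted mice, 24.4 ± 2.31 in casted mice with MOTS-c and 26.6 ± 2.41 in uncasted mice (SD, n = 8 each), levels that overlapped throughout. The log2 fold change with casting was -0.01 (95% interval -0.15 to 0.12, limma adjusted p = 0.864), and the sign turned to 0.48 on the deposited TPM (limma adjusted p = 3.87e-07). With casting and MOTS-c it was -0.12 (limma adjusted p = 0.126), against 0.30 on the deposited TPM (limma adjusted p = 0.000253) and -0.15 without MOTS-c replicate 5 (limma adjusted p = 0.0419). Its paralog Rps6kb2, which encodes S6 kinase 2, rose by 0.43 with casting (limma adjusted p = 0.00121). The ratio of Rps6kb1 to Rps6kb2 was therefore 0.885 ± 0.132 in casted and 0.861 ± 0.164 in casted MOTS-c mice, against 1.24 ± 0.29 in uncasted mice. The differences in log2 ratio were -0.46 with casting (exact permutation adjusted p = 0.00379) and -0.51 with casting and MOTS-c (exact permutation adjusted p = 0.00233). The annotated end of Rps6kb1 overlaps Rnft1 on the opposite strand by 155 bases, and strand specificity of the libraries was not stated in those sources that were used.

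Of the REDD pair, Ddit4 (ENSMUSG00000020108, chr10:59949669-59951834, minus strand) encodes REDD1, a stress-induced inhibitor that acts through the TSC complex and is known as a glucocorticoid target in muscle. Its lowest, median and highest levels were 14.6, 116 and 170 scaled TPM in casted mice, 39.0, 102 and 157 in casted mice with MOTS-c, and 8.15, 99.3 and 136 in uncasted mice. The groups overlapped almost entirely. The log2 fold change was 0.32 ± 0.53 (SE) with casting (limma adjusted p = 0.624) and 0.35 ± 0.53 with casting and MOTS-c (limma adjusted p = 0.600). The 95% interval with casting ran from -0.77 to 1.41 in this fit, which has no term for the replicate number. Without uncasted replicate 1 both values turned in sign, to -0.09 and -0.05.

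The spread of Ddit4 went with the replicate number in the labels. Replicates 1 and 2 of each group averaged 25.7 ± 15.7 scaled TPM in casted, 40.3 ± 1.82 in casted MOTS-c and 15.9 ± 10.9 in uncasted mice (SD, n = 2 each), against 126 ± 36.4, 111 ± 37.5 and 106 ± 20.3 in replicates 3 to 8 (SD, n = 6 each). Replicates 1 and 2 were the lowest of the 8 in all 3 groups, and replicate 3 of the MOTS-c group (46.5) was the next lowest there. The labels do not say what a replicate number marks, such as an order or a day of collection. With replicates 3 to 8 alone, a choice made after these values were seen, the log2 fold change of Ddit4 was 0.20 with casting (limma adjusted p = 0.521) and -0.01 with casting and MOTS-c (limma adjusted p = 0.973).

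**Figure D3:**
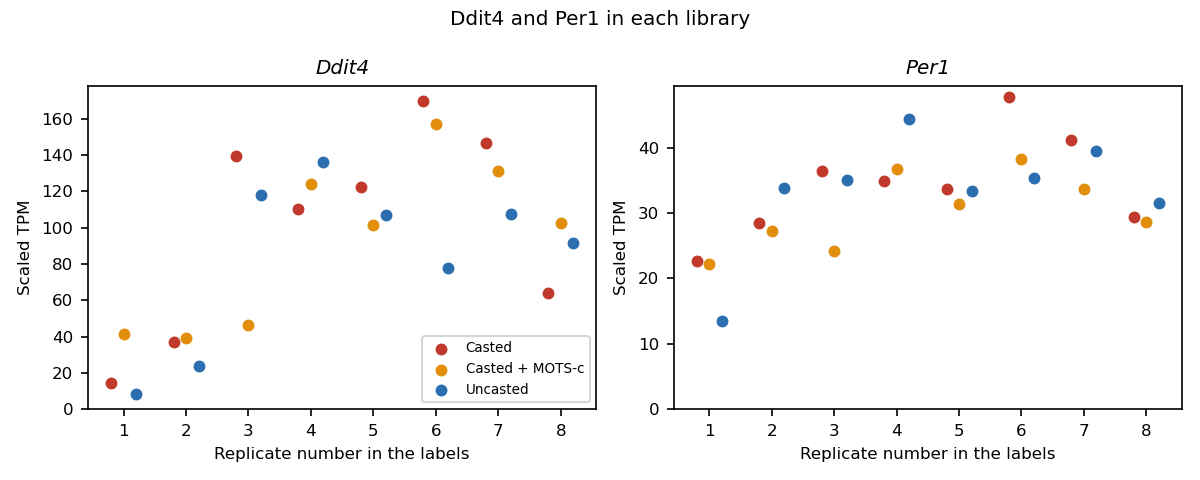
Scaled TPM (y axes, from 0) of Ddit4 (left) and of Per1 (right), the gene whose order over the libraries was most like that of Ddit4, against the replicate number in the labels (x axes); red points are casted, orange casted with MOTS-c and blue uncasted mice, 1 point per mouse. Ddit4 was between 8.15 and 41.5 in the 6 libraries numbered 1 and 2 and between 46.5 and 170 in the 18 others.

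Among 11222 genes compared, those whose order over the 24 libraries was most like that of Ddit4 were Per1, a repressor of the circadian clock that glucocorticoids also induce, Slc25a33, a mitochondrial carrier for pyrimidine nucleotides, and Nfkbia, the inhibitor of NF-kB. Their mean absolute differences in rank were 2.75, 2.83 and 2.92 places, beside a median of 8.00 places over all genes compared. Per1 averaged 34.3 ± 7.80 scaled TPM in casted, 30.3 ± 5.76 in casted MOTS-c and 33.3 ± 8.99 in uncasted mice (SD, n = 8 each), so the likeness was one of libraries within groups. In replicates 1 and 2 Per1 was at 25.6 ± 4.04 scaled TPM in casted, 24.8 ± 3.61 in casted MOTS-c and 23.7 ± 14.4 in uncasted mice (SD, n = 2 each), against 37.2 ± 6.42, 32.2 ± 5.23 and 36.6 ± 4.65 in replicates 3 to 8 (SD, n = 6 each).

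Ddit4l (ENSMUSG00000046818, chr3:137621612-137628333, plus strand) encodes REDD2, the related inhibitor that is abundant in skeletal muscle. Its lowest, median and highest levels were 45.8, 58.3 and 132 scaled TPM in casted mice, 41.1, 83.3 and 135 in casted mice with MOTS-c, and 114, 128 and 174 in uncasted mice. In each casted group 7 of 8 mice were below the lowest uncasted mouse, and the exceptions were casted replicate 1 and MOTS-c replicate 5. Ddit4l fell by 0.99 ± 0.21 (SE, log2) with casting (limma adjusted p = 0.000353) and by 0.78 ± 0.21 with casting and MOTS-c (limma adjusted p = 0.00387). Without scaling the change was -0.48 with casting (limma adjusted p = 0.0458). With MOTS-c it was then -0.34 and missed the threshold (limma adjusted p = 0.152). The ratio of Ddit4 to Ddit4l within a library was 1.68 ± 1.04 in casted and 1.41 ± 1.08 in casted MOTS-c mice, against 0.676 ± 0.399 in uncasted mice. The differences in log2 ratio, 1.34 and 1.16, did not pass (exact permutation adjusted p = 0.194 for each), while with replicates 3 to 8 alone the first was 1.22 (exact permutation adjusted p = 0.0139). Without casted replicate 1 it was 1.83 and passed (exact permutation adjusted p = 0.0161). The coding sequences of Ddit4 and Ddit4l are 60.5% identical, with no identical run beyond 13 bases.

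The sestrins are stress-induced proteins that bind GATOR2, and 2 of their 3 genes rose with casting. Sesn3 (ENSMUSG00000032009, chr9:14275067-14333101, plus strand), a known FoxO target, was at 6.44, 8.53 and 11.8 scaled TPM (lowest, median, highest) in casted mice, 5.40, 7.56 and 12.6 in casted mice with MOTS-c and 4.14, 6.20 and 7.41 in uncasted mice. In 7 of 8 casted mice and 4 of 8 casted mice with MOTS-c it was above the highest uncasted mouse. Its log2 fold change was 0.49 ± 0.14 (SE) with casting (limma adjusted p = 0.00429) and 0.34 ± 0.14 with casting and MOTS-c (limma adjusted p = 0.0462). The second call was a narrow one: over the 24 fits that left out 1 library the limma adjusted p ranged from 0.0209 to 0.116, and 15 lost the call. The libraries left out in those 15 were uncasted replicates 3, 4, 6, 7 and 8, casted replicates 2 to 6, and MOTS-c replicates 1 to 4 and 8, and the value ran from 0.24 to 0.35. The call was also lost without a filter on low values (limma adjusted p = 0.0930), with the 2 groups alone in the fit (0.0598), with casted replicates 5 to 8 alone (0.0639) and with replicates 3 to 8 alone (0.138).

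Sesn2 (ENSMUSG00000028893, chr4:132492032-132510501, minus strand), whose product is a sensor of leucine, averaged 1.54 ± 0.27 scaled TPM in casted, 1.36 ± 0.23 in casted MOTS-c and 1.19 ± 0.15 in uncasted mice (SD, n = 8 each). The rise of 0.21 with casting passed (limma adjusted p = 0.0160), with 8 of 8 casted mice above the uncasted mean, while the value of 0.11 with casting and MOTS-c did not (limma adjusted p = 0.222; on the deposited TPM 0.34, limma adjusted p = 0.000744). At levels this low the added 1 TPM makes the log2 fold change smaller than the change in level. With casted replicates 1 to 4 alone, which an earlier reading of these data had found to differ from replicates 5 to 8, the value was 0.10 (limma adjusted p = 0.377).

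Sesn1 (ENSMUSG00000038332, chr10:41809935-41908424, plus strand), a p53 and FoxO target and the most abundant sestrin here, averaged 18.0 ± 8.51 scaled TPM in casted, 24.7 ± 15.0 in casted MOTS-c and 14.5 ± 3.09 in uncasted mice (SD, n = 8 each). It made up 61.7% ± 9.59 of the summed sestrin transcripts in casted, 68.5% ± 13.9 in casted MOTS-c and 66.6% ± 7.16 in uncasted mice. The groups overlapped, and the log2 fold changes of 0.22 with casting (limma adjusted p = 0.506) and 0.57 with casting and MOTS-c (limma adjusted p = 0.0771) did not pass. Both passed on the deposited TPM, at 0.70 (limma adjusted p = 0.0257) and 0.98 (limma adjusted p = 0.00290). The second also passed without MOTS-c replicate 2, 3 or 5, at 0.65 to 0.68 (limma adjusted p of 0.0330 to 0.0488). Replicate 6 was the highest of its group in both casted groups, at 36.7 in casted mice and 56.2 in casted mice with MOTS-c, and it was at 12.0 in uncasted mice. The genes whose order over the libraries was most like that of Sesn1 were Cyp27a1, a sterol hydroxylase, Klf15, a glucocorticoid-induced transcription factor of muscle, and Sorbs3, a cytoskeletal adaptor. Their mean absolute differences in rank were 2.33, 2.42 and 2.58 places, beside a median of 7.92 over all genes compared.

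Deptor (ENSMUSG00000022419, chr15:55112317-55259271, plus strand) encodes a subunit that binds mTOR and inhibits it. Its lowest, median and highest levels were 28.1, 34.4 and 43.2 scaled TPM in casted mice, 33.1, 38.8 and 54.3 in casted mice with MOTS-c, and 41.9, 52.0 and 58.6 in uncasted mice. In 6 of 8 casted mice and 5 of 8 casted mice with MOTS-c it was below the lowest uncasted mouse. Deptor fell by 0.54 ± 0.10 (SE, log2) with casting (limma adjusted p = 3.76e-05) and by 0.30 ± 0.10 with casting and MOTS-c (limma adjusted p = 0.0110). The fall was relative to the middle of all genes: on the deposited TPM the values were -0.04 (limma adjusted p = 0.764) and, with the sign turned, 0.13 (limma adjusted p = 0.271).

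Rragd (ENSMUSG00000028278, chr4:32983037-33022180, plus strand) encodes RagD, which pairs with RagA or RagB and helps to bring mTORC1 to the lysosome, and which is therefore no brake. Its lowest, median and highest levels were 71.1, 75.05 and 80.9 scaled TPM in casted mice, 63.3, 68.6 and 91.1 in casted mice with MOTS-c, and 99.7, 112 and 129 in uncasted mice. No casted mouse reached the lowest uncasted mouse, and the SD of the casted mice, 4.60% of their mean, was the smallest among the 10 genes in that group. Rragd fell by 0.58 ± 0.06 (SE, log2) with casting (limma adjusted p = 5.63e-08) and by 0.67 ± 0.06 with casting and MOTS-c (limma adjusted p = 1.28e-08). Without scaling these values were -0.07 (limma adjusted p = 0.397) and -0.23 (limma adjusted p = 0.00576). Its ratio to Rragc, which encodes the alternative partner RagC, did not depend on the scaling: it was 3.21 ± 0.38 in casted and 3.38 ± 0.57 in casted MOTS-c mice, against 6.22 ± 0.39 in uncasted mice. The difference in log2 ratio from uncasted mice was -0.96 with casting and -0.89 with casting and MOTS-c, with no overlap in either (exact permutation adjusted p = 0.000466 for each).

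The stretch of 250 bases before the annotated start of Rragd is shown as that of the gene whose groups were best separated among the falling genes with an entry in the RefSeq promoter table (GRCm38.p6, plus strand, chr4:32982748-32982997), with a match to the myogenic E-box CAGCTG in capitals.
Rragd: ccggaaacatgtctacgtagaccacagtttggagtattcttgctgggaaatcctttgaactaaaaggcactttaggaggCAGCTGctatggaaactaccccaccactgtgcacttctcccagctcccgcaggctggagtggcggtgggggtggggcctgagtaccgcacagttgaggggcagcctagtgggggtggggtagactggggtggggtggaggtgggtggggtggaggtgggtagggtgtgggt
The match began 171 bases before the start, and 13.0% of the 32851 promoters of the same length held CAGCTG on either strand. Of the 10 genes 8 had an entry, and the other 7 of these held no match to CAGCTG. None of the 8 held TGATGNAA (ATF4 composite element, in 3.45% of all promoters), GTAAACA (FoxO, 3.17%), CACGTG (E-box, 6.02%) or the glucocorticoid receptor element (0.387%) in this window on either strand. The CAGCTG motif was added to the search after the sequences had been read.

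MOTS-c was next compared with casting alone, which addresses whether the peptide altered what casting did to these genes. None of the 10 genes passed (limma, adjusted p under 0.05), beside 0.0204% of all genes tested, with 0.0136% higher (2 genes) and 0.00681% lower (1 gene). Of the 10, 1 gene, Deptor, had an unadjusted p under 0.05, as 1986 of the 14690 genes did. The counts over all genes moved with single libraries: they were 41 higher and 22 lower without casted replicate 1, 20 and 6 without MOTS-c replicate 8, and 0 and 0 without any 1 of casted replicates 5, 7 and 8, MOTS-c replicates 2 and 4 to 7, or uncasted replicate 8. The median log2 fold change of the 10 genes was -0.09, against -0.00 over all genes tested. No gene of the 10 separated the 2 casted groups without overlap, beside 0.0749% of all genes. Deptor was at 41.1 ± 6.42 scaled TPM with MOTS-c, against 34.7 ± 5.74 in casted mice (SD, n = 8 each), with 7 of 8 mice above the casted mean; the log2 difference of 0.24 had a 95% interval of 0.04 to 0.44 (limma unadjusted p = 0.0199, adjusted p = 0.3002).

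Eif4ebp1 was at 151 ± 61.0 scaled TPM with MOTS-c, against 194 ± 66.2 in casted mice, and 6 of 8 mice with MOTS-c were below the casted mean. The log2 difference was -0.38, with a 95% interval of -0.88 to 0.11 (limma adjusted p = 0.486), so a decrease of more than 0.88 lay outside the interval and no difference was shown. Within the casted group replicates 1 to 4 averaged 143 ± 50.9 and replicates 5 to 8 averaged 244 ± 27.6 (SD, n = 4 each). No library of the first set reached the lowest of the second (207 against 215). How many of all genes separated these sets in the same way was not counted. An earlier reading of these data had found these sets to differ, so the split was not independent of the values. Eif4ebp1 was higher in replicates 5 to 8, so a lower MOTS-c value against them alone follows in part from the choice. The p-value of that fit is therefore no independent test of MOTS-c. The MOTS-c difference was -0.79 with casted replicates 5 to 8 alone in the fit (limma adjusted p = 0.0458). In that fit 709 genes were higher and 708 lower over all genes tested, so the call was not particular to Eif4ebp1. With casted replicates 1 to 4 alone the difference was 0.03 (limma adjusted p = 0.996), with 1 gene higher and 1 lower over all genes tested. The MOTS-c difference of Eif4ebp1 thus rested on which casted mice were used. Of the other genes, Ddit4l differed by 0.21 (95% interval -0.23 to 0.65), Sesn1 by 0.35 (-0.19 to 0.90), Sesn3 by -0.15 (-0.44 to 0.14) and Rragd by -0.09 (-0.22 to 0.05). Sesn2, Rps6kb1 and Eif4ebp2 each differed by -0.10, and Ddit4 by 0.03. The limma adjusted p of these 8 genes ran from 0.482 to 0.985. The 5 within-library ratios differed by -0.43 to 0.07 in log2 between the MOTS-c and casted mice, and none passed (exact permutation adjusted p of 0.406 to 0.807).

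Against uncasted muscle, 2 of the 10 genes rose in the casted mice with MOTS-c, Eif4ebp1 and Sesn3, and 3 fell, Ddit4l, Deptor and Rragd, beside 26.0% of all genes higher and 24.7% lower, or 50.7% in either direction. On the deposited TPM the split over all genes was 8808 higher and 1019 lower. The median log2 fold change of the 10 genes was 0.08. Eif4ebp1 and Rragd again did not overlap with uncasted muscle, beside 15.4% of all genes. This comparison shares the uncasted libraries with that of casting alone, so the likeness of the lists is no independent result.

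**Figure D4:**
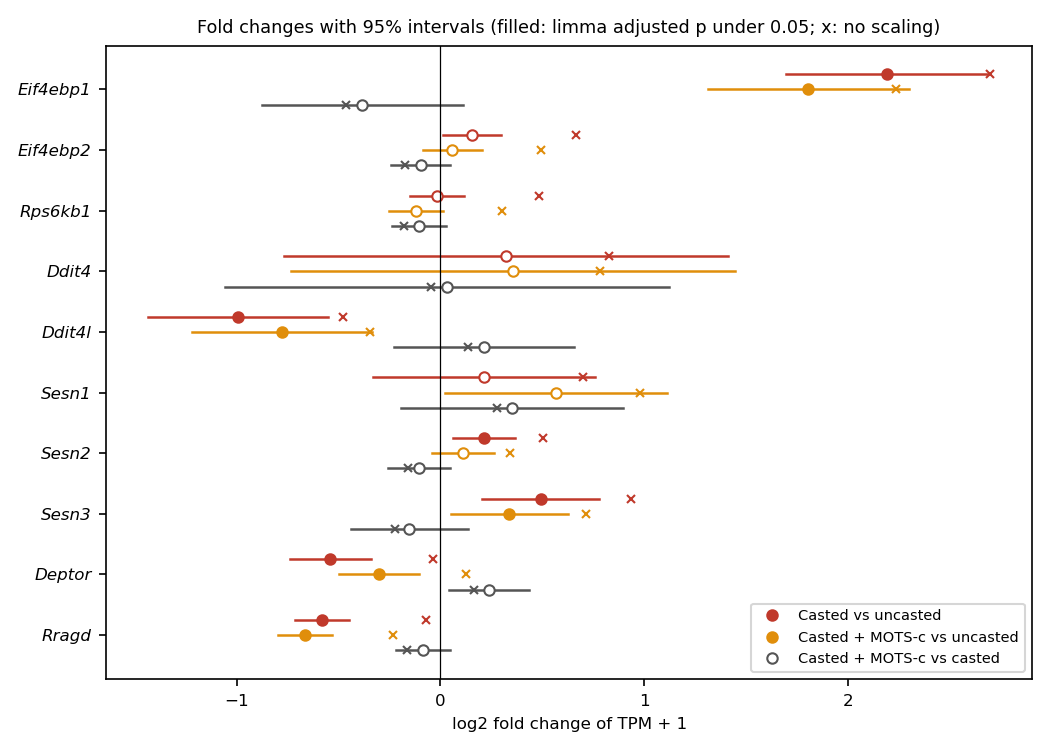
Log2 fold change of scaled TPM + 1 (x axis) of the 10 genes in 3 comparisons, with 95% intervals from limma; filled points passed (adjusted p under 0.05), open points did not, and each x marks the value on the deposited TPM without scaling. Eif4ebp1 lies at 2.19 and 1.81 against uncasted muscle and at -0.38 between the casted groups. The values of all 10 genes against uncasted muscle move upward on the deposited TPM.

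A pair of libraries stood closer to uncasted muscle than the rest of their groups for some of these genes. Casted replicate 1 had the lowest Eif4ebp1 (82.0) and the highest Ddit4l (132) of its group. MOTS-c replicate 5 had the lowest Eif4ebp1 (56.9) and the highest Ddit4l (135), Deptor (54.3) and Rragd (91.1) of its group. This did not hold for every gene. Casted replicate 1 was farther from uncasted muscle than the casted mean for Rragd (74.9 against 75.6) and Sesn3 (9.29 against 8.69). MOTS-c replicate 5 was farther than its group mean for Sesn2 (1.64 against 1.36). The calls for Eif4ebp1, Ddit4l, Deptor and Rragd with casting, and with casting and MOTS-c, held in all 24 fits that left out 1 library, with Eif4ebp1 between 2.10 and 2.35 with casting and between 1.68 and 1.99 with casting and MOTS-c.

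The order of the 10 genes by level also differed after casting. In casted mice and in casted mice with MOTS-c, Eif4ebp1 was the most abundant transcript of the 10 by mean, and it was above Eif4ebp2, the next, in 7 of 8 libraries of each group. In uncasted mice Ddit4l (134 ± 21.4 scaled TPM) and Rragd (114 ± 10.2) came first, with Ddit4l above Rragd in 6 of 8 libraries. Eif4ebp1 was at 39.4 ± 5.40, below Ddit4l, Rragd, Eif4ebp2, Ddit4 and Deptor. The neighbours Eif4ebp2 and Ddit4 could not be ordered in any group: Eif4ebp2 was the higher in 3 of 8 casted, 5 of 8 casted MOTS-c and 4 of 8 uncasted libraries. Sesn3 and Sesn2 were last in every group, and Sesn3 was above Sesn2 in every library. Genes whose order over the libraries was most like that of Eif4ebp1 were Utp11, a ribosome biogenesis factor, and Psmd4 and Psmd12, which encode proteasome subunits. Their mean absolute differences in rank were 0.92, 1.08 and 1.08 places, beside a median of 7.83 over all genes compared.

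The rest of the pathway was described from 7 lists of 76 genes, of which 74 were tested. With casting 31 of the 74 were higher (41.9%) and 12 lower (16.2%), beside 28.7% and 27.7% of all tested genes, and on the deposited TPM 63 were higher and 1 lower. With casting and MOTS-c against uncasted muscle 26 were higher (35.1%) and 15 lower (20.3%), beside 26.0% and 24.7% of all tested genes. Between the MOTS-c and casted groups none passed (limma). Of the 74 genes, 10 had an unadjusted p under 0.05, beside 1986 of all 14690 genes tested, a like share. All 8 genes of the list of S6 kinase and its targets were higher with casting, with a median of 0.45. They were led by Eif4b (0.85, limma adjusted p = 1.30e-08), an initiation factor, and Eef2k (0.77, limma adjusted p = 2.91e-07), the kinase that restrains elongation. This list leaves out Rps6kb1, 1 of the 10 genes, which was at -0.01 with casting (limma adjusted p = 0.864).

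Of the 9 core subunits tested, 2 were higher and 1 was lower. Mtor, the kinase itself, was at 23.4 ± 3.40 scaled TPM in casted and 12.8 ± 1.93 in uncasted mice (0.83, limma adjusted p = 1.24e-07), Rptor, which recruits substrates, rose by 0.29 (limma adjusted p = 0.0106), and the assembly factor gene Tti1 was -0.19 (limma adjusted p = 0.0323; 0.29 on the deposited TPM). Of 5 genes of the TSC complex and Rheb, 3 were higher, among them Tsc1 (0.43, limma adjusted p = 0.000391) and Tsc2 (0.37, limma adjusted p = 0.000236), whose products switch Rheb off. The third was Rheb (0.31, limma adjusted p = 0.00254), which encodes the GTPase that activates mTORC1. Among 12 Rag, Ragulator and folliculin genes 4 were higher and 4 lower. Rragc (0.36) and Rraga (0.29) rose, while Fnip1 (-0.56), which encodes a folliculin partner, and the Ragulator gene Lamtor4 (-0.54) fell. Those values were -0.07 and -0.04 on the deposited TPM.

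Of 15 genes of GATOR1, GATOR2, KICSTOR and the amino acid sensors, 5 were higher, led by Lars (0.66), the leucyl-tRNA synthetase, and the GATOR2 gene Seh1l (0.60). Another 2 were lower, the KICSTOR gene Kptn (-0.79; -0.33 on the deposited TPM) and the arginine sensor gene Castor1 (-0.50; -0.16 on the deposited TPM). Of 10 genes listed with the cap-binding complex, among them the 4E-BP gene Eif4ebp3, 4 were higher and 3 lower. The helicase gene Eif4a1 rose to 190.5 ± 32.4 scaled TPM in casted mice, against 75.8 ± 3.45 in uncasted mice (1.30, limma adjusted p = 6.61e-09), the scaffold gene Eif4g3 rose by 0.68, and Eif4e (-0.54; -0.03 on the deposited TPM) and Eif4g2 (-0.25; 0.26 on the deposited TPM) fell. Of 15 tested transcription regulators known to act on these genes 5 were higher, among them Hif1a (0.46) and Trp53 (0.46), and 2 lower, Nr3c1, the glucocorticoid receptor gene (-0.40; 0.11 on the deposited TPM), and Foxo4 (-0.19; 0.32 on the deposited TPM).

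**Figure D5:**
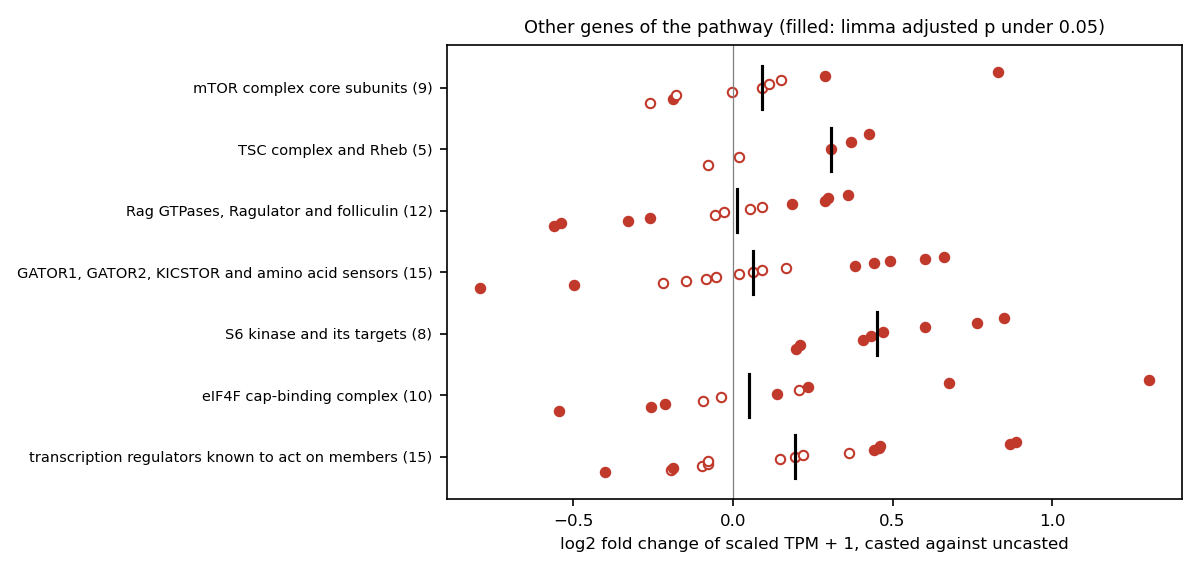
Log2 fold change of scaled TPM + 1 in casted against uncasted muscle (x axis) of the 74 tested genes of 7 pathway lists (rows, with the number of genes tested), 1 point per gene; filled points passed (limma adjusted p under 0.05), open points did not, and black bars are list medians. All 8 genes of the S6 kinase list, which leaves out Rps6kb1, lie above 0, with a median of 0.45. The Rag list has 4 filled points on each side.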

How the data were processed

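Per the labels' protocols, RNA was extracted from frozen muscle with TRIzol and a column kit and made into libraries by capture of poly-adenylated RNA. The deposited files hold TPM for 55487 Ensembl mouse genes in each of 24 libraries, as the authors made them; the submitters' processing notes name FastQC, STAR, RSEM, DESeq2 and the build GRCm38.p6, without versions. TPM have a fixed total, so depth is unknown and no counting interval was given; 19832 to 21755 genes were above 0 per library.

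From these values, TPM were scaled between libraries by an unweighted trimmed mean of log ratios (30% of ratios and 5% of levels trimmed). Genes with at least 0.5 TPM in at least 8 libraries (14690) were tested with limma 3.58.1 (R 4.3.3, trend) on log2(scaled TPM + 1), in 1 fit of 3 group means, two-sided, with Benjamini-Hochberg adjustment over all genes and a threshold of 0.05. Fold changes on this scale understate those of low genes. Log2 ratios within a library (0.1 added to each TPM) were compared by exact permutation tests over all 12870 splits, adjusted over 15 tests. The model was tested on simulated data. All 10 members are named, with up to 2 genes of smallest p per direction and list, the 3 most alike genes for Eif4ebp1, Ddit4 and Sesn1, and those that ratios use. Rheb and Eif4ebp3 are named besides.

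The members and lists were chosen with earlier results of these data known. Symbols and coordinates (1-based) come from GENCODE M21 on GRCm38, with 55141 identifiers matched. Prr5l and Ddit3, members of the lists, did not pass the filter. The largest share of equal values between any 2 libraries was 0.448%, so none was a duplicate. Alternatives covered scaling, pseudocount, filter, block, groups fitted, variance weights, each library left out, and parts of the casted group.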

Additional observations from a re-analysis of the deposited data

Results flagged for a closer look

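In 3 of the 30 sets of 8 values (10 genes in 3 groups) 1 library stood apart from the rest of its group by a gap that passed Dixon's critical value for 8 values; chance alone flags about 1 in 20 such sets. Sesn1 in casted replicate 6 was at 36.7 scaled TPM, with the other casted libraries at 10.96 to 21.99. Sesn1 in replicate 6 of the MOTS-c group was at 56.2, with the others at 11.9 to 30.7. Rragd in replicate 5 of the MOTS-c group was at 91.1, with the others at 63.3 to 74.6; the same library had the lowest Eif4ebp1 (56.9) of the 16 casted libraries.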

How the results depend on the processing

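On the deposited TPM without scaling, casting gave 9132 genes higher and 1091 lower, and casting with MOTS-c 8808 and 1019; among the 10 genes, Rps6kb1 turned to 0.48 and 0.30, Deptor with MOTS-c against uncasted muscle to 0.13, and Ddit4 between the casted groups to -0.045. Median-of-ratios scaling moved no count of all genes by over 1.5 times. For MOTS-c against casting, the counts of genes higher and lower were 0 and 0 with a pseudocount of 0.1, without a filter, with the 2 groups alone in the fit and with variance weights. The deposited TPM gave 5 lower, the filter at 1 TPM in 16 libraries gave 1 higher, casted replicates 1 to 4 alone gave 1 higher, and casted replicates 5 to 8 alone gave 709 and 708. With replicates 3 to 8 of every group, a setting added after seeing the data, 5 were higher.

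Same-numbered libraries had correlations of deviations from -0.24 to 0.37, not all above 0.1, so the numbers were not taken to pair mice. A fit with the replicate block gave 13 higher and 5 lower for MOTS-c against casting. With the block, Sesn1 with casting and MOTS-c passed at 0.57 (limma adjusted p = 0.0350), and the Ddit4 to Ddit4l ratio with casting did at 1.34 (exact sign-flip permutation adjusted p = 0.0293); no other call among the 10 genes and 5 ratios changed.

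With casted replicates 1 to 4 alone, differences of MOTS-c against casting turned in sign for Eif4ebp1 (0.034), Sesn2 (0.013) and the ratios Eif4ebp1 to Eif4ebp2 (0.040), Eif4ebp1 to Eif4e (0.16), Ddit4 to Ddit4l (0.61) and Rragd to Rragc (-0.037), and with casting Ddit4 was at -0.23 and Sesn1 at -0.19. With casted replicates 5 to 8 alone, Ddit4 (-0.51) and Sesn1 (-0.048) turned for MOTS-c against casting. With replicates 3 to 8 alone, Ddit4 turned to -0.012 against uncasted muscle and to -0.21 between the casted groups, Rps6kb1 with casting to 0.024 and its ratio to Rps6kb2 with MOTS-c against casting to 0.030, and Ddit4 to Ddit4l passed at 1.22. The cause of these changes was not tested.

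Leaving out each library in turn gave 0 to 41 genes higher and 0 to 22 lower for MOTS-c against casting. It gave Ddit4 at -0.088 to 0.66 with casting, -0.050 to 0.51 with casting and MOTS-c, and -0.31 to 0.19 between the casted groups, and Rps6kb1 at -0.043 to 0.013 with casting. The ratio of Ddit4 to Ddit4l ran from 0.86 to 1.83 with casting and from -0.67 to 0.036 for MOTS-c against casting, and that of Rps6kb1 to Rps6kb2 from -0.10 to 0.013 for MOTS-c against casting. Depth is unknown, so the counting error of low levels such as those of Sesn2 could not be stated.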

Other observations

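The order of the 24 libraries was compared between pairs of the 10 genes, as a description of libraries that share casting and scaling. Ddit4 and Sesn1, a REDD and a sestrin gene, were the closest pair, with a mean absolute difference in rank of 3.92 places, followed by Ddit4l and Deptor at 4.75 and Ddit4l and Rragd at 4.83, all 3 of which fell with casting. The paralogs were farther apart than these: 6.5 places for Eif4ebp1 and Eif4ebp2, 10.1 for Ddit4 and Ddit4l, 6.33 for Sesn1 and Sesn2, 8.00 for Sesn2 and Sesn3, and 8.92 for Sesn1 and Sesn3. Eif4ebp1 and Ddit4l, at 11.9 places, were the farthest of the 45 pairs.

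Within the casted group, Sesn1 was at 12.4 ± 1.92 scaled TPM in replicates 1 to 4 and 23.6 ± 9.01 in replicates 5 to 8 (SD, n = 4 each). Sesn2 was at 1.34 ± 0.14 and 1.75 ± 0.18 (SD, n = 4 each). Neither gene overlapped between these sets, which an earlier reading of these data had found to differ. The share of all tested genes without overlap at this split was not counted. Deptor (34.97 ± 6.05 and 34.5 ± 6.33) and Rragd (75.1 ± 3.06 and 76.0 ± 4.28) had like means in both sets.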
